A study of Mus musculus with 4 samples.

Results

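The 42 genes described here make or assemble ribosomes in the nucleolus. They comprise Rn45s, the ribosomal RNA precursor transcribed by RNA polymerase I (Pol I), 5 Pol I subunits, 3 initiation factors, 2 nucleolar scaffold proteins and 31 genes of RNA modification, processing and subunit assembly. They were listed by gene symbol and known role, with earlier results of these data known, and all 42 were found among the 26322 genes of the deposited table. All 42 passed the low-value filter that left 12207 genes for testing. The study compared MC38 cells, a mouse colon carcinoma line, that had received Cas9 with a non-targeting guide (sgNT, labelled WT) with MC38 cells that had received Cas9 with a Cbfb guide (sgCbfb, labelled CbfbKO). Cells of both groups had been electroporated with Cas9 and guide RNA at least 1 week before RNA was collected, so the groups differed in the guide. CBFβ is the partner that lets RUNX transcription factors bind DNA stably. There were 2 libraries in each group, and a further replicate of each group had been set aside for poor RNA. The sgCbfb cells came from a single guide, and nothing in the sources used here says that they were cloned or that the replicates came from separate electroporations. The p-values therefore measure the spread between these libraries, which may be technical.

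Ribosome production begins when Pol I transcribes the ribosomal DNA repeats into a long precursor. Small nucleolar RNPs then guide methylation and pseudouridylation of this RNA, while large assemblies of processing factors cut it and fold it into the small and the large subunit. The pathway consumes much of a growing cell's energy, its protein genes are well-known targets of the transcription factor MYC, and enlarged nucleoli are a long-recognised feature of cancer cells.

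The libraries were made by 3′ mRNA sequencing, which primes on poly(A) and reads the transcript end, so that long and short transcripts are read alike. Levels are therefore given as CPM, reads scaled to a common library total and not divided by gene length, from reads recovered from the deposited log2 values. The libraries held between 3189035 and 3907936 reads counted on genes. Cbfb had 295 and 285 reads in the sgNT libraries and 125 and 125 in the sgCbfb libraries, in the direction of the labels. Of 8 markers of colon epithelium (Epcam, Cdh1, Krt8, Krt18, Krt19, Krt20, Cdx2 and Vil1), none had more than 4 reads in any library, and Krt18 and Vil1 were at 0 throughout. Leukocyte markers summed to between 0 and 3 reads per library, over 10 genes, and endothelial markers to 1 or 2 reads. Of 5 mesenchymal markers only Vim was abundant, with 8078, 8437, 8669 and 6737 reads, while Pdgfra had 91 to 169 reads and Col1a1, Col1a2 and Pdgfrb had between 0 and 16. The cells thus lacked the epithelial markers that a colon label would call for, in both groups alike.

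RefSeq promoter windows of build GRCm38.p6, from 250 bases before to 50 bases after a start site, were listed for 35 of the 42 genes, in 43 windows. They were searched on both strands for CACGTG, the E-box bound by MYC and its partner MAX, and for TGTGGT and TGCGGT, forms of the site bound by RUNX with CBFβ. The E-box was present in 8 of the 43 windows (18.6%) and in 7.15% of all 32851 windows in the table. The RUNX letters were present in 12 of the 43 windows (27.9%) and in 22.4% of all windows. Short letter strings occur often in any sequence, and a match is not a bound site. The 4 stretches below are those in which at least 2 matches lay upstream of the start site. They were chosen by this count of upstream matches and not by density. The window of Pes1 also held a RUNX match and an E-box, but its E-box lay after the start site. Each runs 5′ to 3′ on the gene's own strand, from 10 bases before the first match to 10 bases after the last or to the start site, with the matches in capitals and no match overlapping another.
Nop56: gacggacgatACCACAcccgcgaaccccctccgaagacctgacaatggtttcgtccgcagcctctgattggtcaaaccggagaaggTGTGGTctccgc
Nop2: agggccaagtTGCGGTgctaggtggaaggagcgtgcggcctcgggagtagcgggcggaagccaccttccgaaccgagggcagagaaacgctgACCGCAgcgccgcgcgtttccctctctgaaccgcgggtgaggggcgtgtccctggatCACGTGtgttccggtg
Taf1d: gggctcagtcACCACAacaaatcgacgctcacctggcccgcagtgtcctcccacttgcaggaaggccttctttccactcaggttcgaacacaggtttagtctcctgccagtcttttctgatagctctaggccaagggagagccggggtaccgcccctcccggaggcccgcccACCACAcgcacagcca
Rrn3: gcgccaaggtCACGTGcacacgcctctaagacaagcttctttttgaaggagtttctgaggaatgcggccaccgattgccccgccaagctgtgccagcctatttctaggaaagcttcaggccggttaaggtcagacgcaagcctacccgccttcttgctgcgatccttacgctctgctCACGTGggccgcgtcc
They lie on the plus strand at chr2:130274314-130274411 (Nop56), chr6:125131674-125131838 (Nop2), chr9:15306005-15306192 (Taf1d) and chr16:13780474-13780666 (Rrn3). In Nop56 a RUNX match began 88 bases and another 12 bases before the start site. Nop2 alone among the 4 held both kinds of letters, and in Rrn3 both matches were E-boxes, at 215 and 48 bases before the start site. None of these 4 genes passed the test below.

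None of the 42 genes differed between sgCbfb and sgNT cells at an adjusted p-value under 0.05. The smallest adjusted p-value was 0.163, for Nop16 (limma on the deposited log2 values, Benjamini-Hochberg over all 12207 genes, as for every adjusted p-value here unless another fit is named). Over all tested genes 2.83% passed, 1.57% higher and 1.25% lower in sgCbfb cells. At an unadjusted p-value under 0.05 there were 6 of the 42 genes (14.3%), against 14.9% of all tested genes, which is about the same share. The median log2 fold change of the 42 genes was -0.0038, and that of all tested genes was 0.039. Values were positive for 20 genes and negative for 22, and they ran from -0.26 (Nop16) to 0.26 (Las1l). In voom fits on the recovered reads 1 gene passed, Rn45s, as described with that gene.

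**Figure D1:**
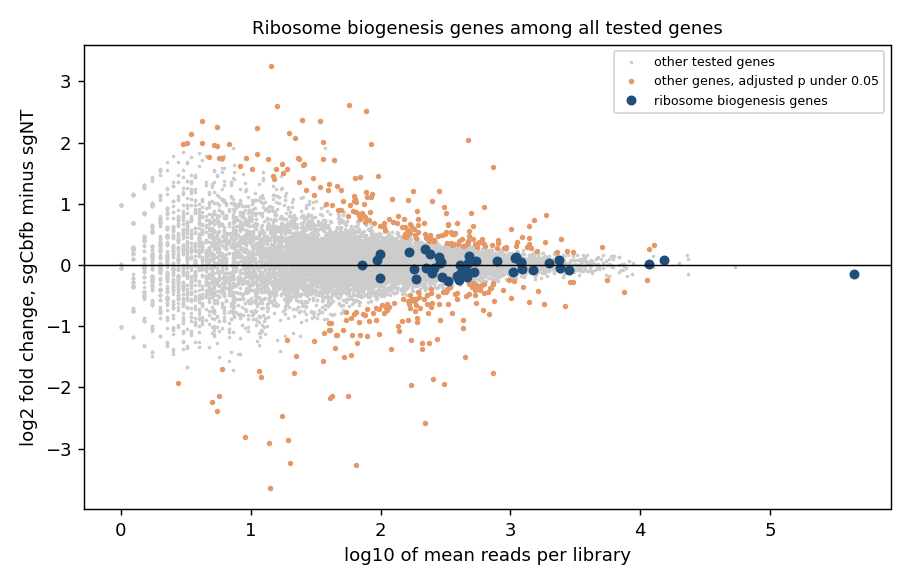
Each point is a gene, with the log10 of its mean reads per library across and its log2 fold change (sgCbfb minus sgNT) upwards. The 42 ribosome biogenesis genes (dark) stay between -0.26 and 0.26, while the 345 genes past the threshold (orange) reach beyond them in both directions.

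The intervals also describe how large a difference between these libraries could have been missed, gene by gene. They rest on the spread between these libraries, which may be technical, and set no bound on the effect of CBFβ loss itself. The 95% interval of the log2 fold change lay inside a 1.5-fold change in either direction for 42 of 42 genes, taken singly. The same held for 5352 of the 6082 tested genes at least as deep as the shallowest coding gene of the list. The lowest bound was -0.55, for the rRNA acetyltransferase Nat10, and the highest was 0.50, for the export factor Rrp12, both thinly read genes with under 120 reads per library. Standard errors ran from 0.046 for Ncl to 0.19 for Polr1b, which had between 62 and 87 reads, and that of Rn45s, with by far the most reads, was 0.059. The count of such intervals depended on the libraries used, and was 33 without sgCbfb replicate 2 and 36 without the mean-variance trend.

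**Figure D2:**
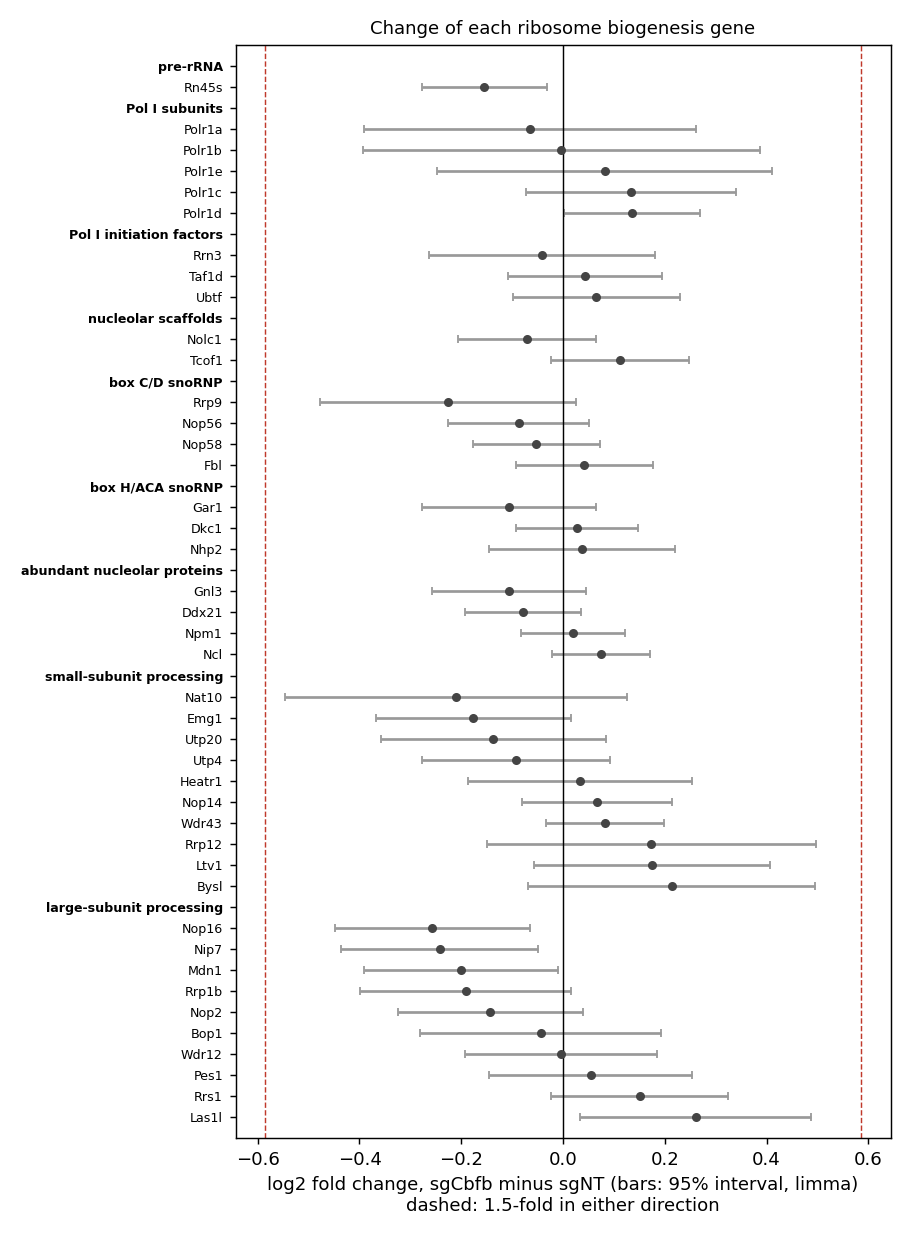
Points are log2 fold changes (sgCbfb minus sgNT) of each gene with 95% intervals from limma, grouped by role, and the dashed lines mark a 1.5-fold change. All 42 intervals lie between the dashed lines, and those of Rn45s, Polr1d, Nop16, Nip7, Mdn1 and Las1l leave out 0 before adjustment.

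Rn45s, the entry named for the rRNA precursor, had by far the most reads of any gene. It took 13.9% and 13.1% of the reads of the sgNT libraries and 11.3% and 13.0% of those of the sgCbfb libraries. The 95% Wilson intervals, which cover counting error only, were 13.9% to 14.0%, 13.1% to 13.2%, 11.3% to 11.4% and 13.0% to 13.1%. The lower sgCbfb mean therefore came mostly from sgCbfb replicate 1, while sgCbfb replicate 2 lay just below sgNT replicate 2. The mean share was 13.5% ± 0.54 (SD, n = 2) for sgNT against 12.2% ± 1.20 (SD, n = 2) for sgCbfb, so the group difference was close to the spread between the sgCbfb libraries. Its log2 fold change, with the standard error (SE) from limma, was -0.15 (SE 0.059, adjusted p = 0.191), or 89.9% of the sgNT level with a 95% interval from 82.5% to 97.8%. An exact permutation test of 2 libraries against 2 cannot give a p-value under 0.333.

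Rn45s passed the test in other fits, which differed from limma on the deposited values in their input as well as in their variance model. Voom, run on the recovered reads and library totals, put it at -0.16 on the log2 scale with adjusted p = 4.26e-06, where 1.61% of all tested genes were called lower, and with median-of-ratios scaling at -0.22 with adjusted p = 1.10e-05. Without sgCbfb replicate 1 the limma value was -0.054, and without sgCbfb replicate 2 it was -0.26. These fits leave a single sgCbfb library and are given for the size of the difference only. Setting Rn45s against the reads that remained without ribosomal RNA genes gave -0.18 (adjusted p = 0.102). The Rn45s reads may come from the precursor or from the mature RNAs cut from it. The span of the Rn45s entry is not given in the sources used here. Mature rRNA has no poly(A) tail, so a poly(A)-primed library takes it up by accident, and how far these reads follow the amount of rRNA in the cells was not tested.

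Rn18s, a separate entry for the small-subunit RNA that is cut from the precursor, took up 1.56% and 1.60% of reads in sgNT libraries. In sgCbfb libraries it took up 1.43% and 1.68%. Both groups overlapped, with sgCbfb replicate 1 lowest and sgCbfb replicate 2 highest, and the log2 fold change was -0.027 (adjusted p = 0.883). Per 100 Rn45s reads there were 11.2 and 12.2 Rn18s reads in sgNT and 12.7 and 12.9 in sgCbfb libraries. How reads that match both entries were counted is not given, so the counts of Rn45s and Rn18s may not be independent. CPM are shares of a library, so a change in the total RNA of a cell would not appear in any of these values.

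**Figure D3:**
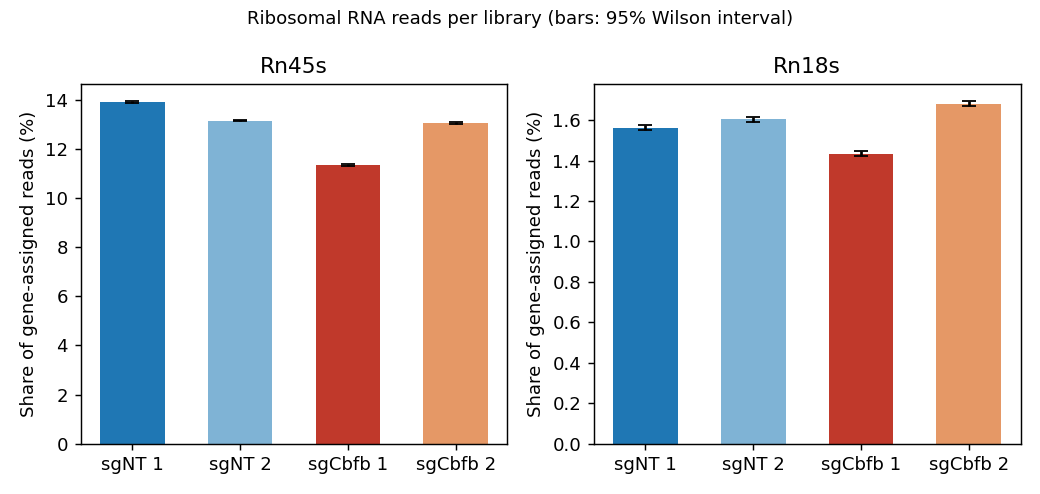
Bars give the share of gene-assigned reads on Rn45s (left) and Rn18s (right) in each of the 4 libraries, with 95% Wilson intervals. For both genes sgCbfb replicate 1 is the lowest library, at 11.3% and 1.43%.

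None of the 5 Pol I subunit genes passed the test. Polr1a and Polr1b encode the large catalytic subunits, Polr1c and Polr1d a pair of assembly subunits that Pol I shares with RNA polymerase III, and Polr1e a subunit that takes part in initiation. Polr1d, on chromosome 5 (147077050 to 147111597, plus strand, GRCm38), was the most abundant of them, at 301.8 and 305.8 CPM in sgNT and 331.4 and 336.2 CPM in sgCbfb cells. Both sgCbfb libraries lay above both sgNT libraries, and replicates were close. Its log2 fold change was 0.14 (SE 0.065, adjusted p = 0.327), or 110% of the sgNT level. Polr1c, its partner, was at 0.13 (adjusted p = 0.592), also without overlap of the groups. The catalytic subunits were read far less, 62 to 223 reads per library. Polr1a was at -0.064 and Polr1b at -0.0038 on the log2 scale, with intervals reaching 0.39 in size, and Polr1e was at 0.082. Replicate spread in Polr1a exceeded its group difference, with sgNT replicate 1 above replicate 2 by 0.59. Summed, the 5 genes held 493 and 472 CPM in sgNT and 527 and 510 CPM in sgCbfb cells.

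Of the initiation factors, none passed. Ubtf encodes UBF, the protein that keeps active ribosomal DNA open, Rrn3 the factor that makes Pol I competent to start, and Taf1d a subunit of the selectivity factor SL1 whose introns also carry small nucleolar RNAs. Ubtf, on chromosome 11 (102304560 to 102319742, minus strand), had 149 and 158 CPM in sgNT and 162 and 159 CPM in sgCbfb cells, or 0.065 on the log2 scale (adjusted p = 0.776). The upper sgNT and the lower sgCbfb library of Ubtf were nearly equal. Taf1d, on chromosome 9 (15306214 to 15316991, plus strand), was the most abundant, at 338 and 340.3 CPM in sgNT and 382 and 320.2 CPM in sgCbfb cells. The sgCbfb libraries of Taf1d lay on both sides of the sgNT libraries, and its log2 fold change of 0.043 (adjusted p = 0.854) became -0.084 without sgCbfb replicate 1. Rrn3, with the pair of E-boxes shown above, was at -0.041 (adjusted p = 0.908).

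The nucleolar scaffolds Tcof1 and Nolc1 encode treacle and Nopp140, repeat-rich phosphoproteins that link Pol I to the modifying RNPs. Tcof1 had 307 and 300.4 CPM in sgNT and 335 and 321 CPM in sgCbfb cells, without overlap, a difference of 0.11 (SE 0.066, adjusted p = 0.455). Nolc1, on chromosome 19 (46075863 to 46085530, plus strand), had 380.4 and 353 CPM in sgNT and 357 and 341 CPM in sgCbfb cells. The groups overlapped for Nolc1, which was at -0.070 (adjusted p = 0.690).

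The genes of the modifying RNPs showed no call among 7. In box C/D RNPs, Fbl encodes fibrillarin, the methyltransferase, Nop56 and Nop58 its core scaffold, and Rrp9 a protein of the U3 particle that directs early cleavage. Nop58, on chromosome 1 (59684971 to 59719044, plus strand), was the most abundant, at 679 and 732 CPM in sgNT and 710.3 and 650.0 CPM in sgCbfb cells. Its groups overlapped, at a log2 fold change of -0.053 (adjusted p = 0.761). Rrp9, on chromosome 9 (106475963 to 106485424, plus strand), had the smallest p-value of the class, with 61.0 and 57.3 CPM in sgNT and 46.1 and 55.2 CPM in sgCbfb cells. Its log2 difference was -0.23 (SE 0.12, adjusted p = 0.406), and its low value was that of sgCbfb replicate 1, with sgCbfb replicate 2 only slightly below the sgNT libraries. Nop56, whose promoter window holds 2 RUNX matches, was at -0.087 (adjusted p = 0.600), and Fbl at 0.041 (adjusted p = 0.840).

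Box H/ACA RNPs convert uridine to pseudouridine. Dkc1, on the X chromosome (75095854 to 75109777, plus strand), encodes dyskerin, their enzyme, and Nhp2 and Gar1 encode partner proteins. Dkc1 had 557 and 583 CPM in sgNT and 577 and 585 CPM in sgCbfb cells, an overlap of the groups at a log2 fold change of 0.027 (SE 0.058, adjusted p = 0.884). Its 95% interval ran from -0.092 to 0.15. Gar1, on chromosome 3 (129824912 to 129831396, minus strand), had 150.5 and 167 CPM in sgNT and 151.2 and 144 CPM in sgCbfb cells, at -0.11 (adjusted p = 0.611), and Nhp2 was at 0.038. All 3 genes overlapped between the groups.

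None of the 4 abundant nucleolar proteins passed, with standard errors from 0.046 (Ncl) to 0.073 (Gnl3). Ncl encodes nucleolin, an RNA chaperone that also takes part in Pol I transcription, Npm1 the histone and assembly chaperone nucleophosmin, Ddx21 an RNA helicase of rRNA processing, and Gnl3 the GTPase nucleostemin. Ncl, on chromosome 1 (86344719 to 86359400, minus strand), had 14503 and 14197 reads in sgNT and 17711 and 14191 in sgCbfb cells. Scaled to library totals this was 4270.4 and 4257 CPM against 4532 and 4449.9 CPM, and the sgCbfb libraries were the higher pair. The log2 fold change was 0.075 (SE 0.046, adjusted p = 0.493), or 105% of the sgNT level. Npm1 was at 0.019 (95% interval -0.083 to 0.12), Ddx21 at -0.079 and Gnl3 at -0.11, all with adjusted p-values over 0.05. Together the 4 genes held 8694 and 8843 CPM in sgNT and 9133 and 8813 CPM in sgCbfb cells, with sgCbfb replicate 2 inside the sgNT range.

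None of the 10 genes of small-subunit processing passed, with 6 values positive and 4 negative and a median of 0.050. The list holds subunits of the early processome (Heatr1, Utp4, Wdr43, Utp20, Nop14), the modifying enzymes Emg1 and Nat10, and late maturation and export factors (Rrp12, Bysl, Ltv1). Wdr43, on chromosome 17 (71615895 to 71659031, plus strand), was the most abundant, at 662 and 674 CPM in sgNT and 722 and 694 CPM in sgCbfb cells. The groups did not overlap, and the log2 fold change was 0.083 (SE 0.056, adjusted p = 0.537). Emg1, a pseudouridine methyltransferase on chromosome 6 (124704085 to 124712178, minus strand), had the smallest p-value. It had 120.4 and 119 CPM in sgNT and 98.5 and 114 CPM in sgCbfb cells, at -0.18 (SE 0.092, adjusted p = 0.388). As with Rrp9, the sgCbfb replicates of Emg1 stood apart, by 0.21 on the log2 scale, and replicate 1 was the low one. Nat10 was at -0.21, Utp20 at -0.14, Utp4 at -0.093, Nop14 at 0.067 and Heatr1 at 0.033. The late factors Bysl, Ltv1 and Rrp12 were at 0.21, 0.18 and 0.17, with adjusted p-values from 0.507 to 0.678, and in Bysl and Ltv1 the high library was sgCbfb replicate 1, which exceeded sgCbfb replicate 2 by 0.40 and 0.24. Summed, the 10 genes held 1476 and 1467 CPM in sgNT and 1523 and 1499 CPM in sgCbfb cells.

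None of the 10 genes of large-subunit processing passed, with 3 values positive and 7 negative and a median of -0.093. Of the 42 genes, 22 had groups without overlap (44.1% of all tested genes did), 12 with sgCbfb higher (28.6%, against 27.4% of all tested genes) and 10 with sgCbfb lower (23.8%, against 16.8%), and 8 of the 22 were among these 10. Of the 6 genes with an unadjusted p-value under 0.05 4 were also here, Nop16, Nip7 and Mdn1 with lower and Las1l with higher values. Over all tested genes 14.9% had such a p-value. Among tested genes at least as deep as the shallowest coding gene of the list, 18.5% did. Whether such genes gather in this role was not tested, and the count was singled out with the values known. Nop16, a structural factor of early large-subunit particles on chromosome 13 (54584185 to 54590090, minus strand), had 104.5 and 104.3 CPM in sgNT and 89.0 and 85.6 CPM in sgCbfb cells. Replicates agreed within 0.057 on the log2 scale in both groups, and the log2 fold change was -0.26 (SE 0.093, adjusted p = 0.163), or 83.7% of the sgNT level. Nip7, a small RNA-binding factor on chromosome 8 (107056877 to 107060931, plus strand), had 119 and 133 CPM in sgNT and 99.3 and 114 CPM in sgCbfb cells, at -0.24 (adjusted p = 0.196).

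Mdn1, on chromosome 4 (32657119 to 32775217, plus strand), encodes midasin, the giant ATPase that strips factors from the maturing large subunit. It had 130.4 and 158 CPM in sgNT and 123 and 127 CPM in sgCbfb cells, at -0.20 (adjusted p = 0.299), and most of this lay in sgNT replicate 2, the highest library. Las1l encodes the nuclease that cuts the spacer between the rRNAs of the large subunit, and lies on the X chromosome (95935335 to 95956962, minus strand). It had 59.2 and 55.8 CPM in sgNT and 71.1 and 66.8 CPM in sgCbfb cells, at 0.26 (SE 0.11, adjusted p = 0.250). Las1l thus had the highest value of the 42 while its replicates differed by under 0.1. Rrs1, on chromosome 1 (9545408 to 9547455, plus strand), helps place the small 5S particle and was the most abundant here. It had 129 and 136 CPM in sgNT and 140.2 and 154 CPM in sgCbfb cells, at 0.15 (adjusted p = 0.428). Pes1, Bop1 and Wdr12, which form 1 complex, were at 0.054, -0.044 and -0.0039. The methyltransferase Nop2, with 3 matches in its window, was at -0.14 (adjusted p = 0.493), and Rrp1b at -0.19 (adjusted p = 0.385). Summed, the 10 genes held 1037 and 1059 CPM in sgNT and 1005 and 987 CPM in sgCbfb cells.

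Over the 41 genes apart from Rn45s, the summed level was nearly the same in all libraries. It was 1.81% and 1.82% of the non-rRNA reads in sgNT and 1.83% and 1.80% in sgCbfb cells, and the sgCbfb libraries enclosed the sgNT libraries. Ncl and Npm1 made up between 49.0% and 50.5% of this sum in each library. Gene by gene, the sgCbfb replicates differed from each other by more than the groups did at the median. The median absolute difference was 0.12 between the sgCbfb libraries, 0.085 between the sgNT libraries and 0.087 between the groups. Over all tested genes it was 0.173, 0.178 and 0.170, in the same order. The group value compares means of 2 libraries and the others compare single libraries, so they are unlike measures. Of the 41 genes, 31 were higher in sgCbfb replicate 1 than in replicate 2, with a median of 0.072, whereas Rn45s was lower there by 0.20. Over all tested genes 54.6% were higher in sgCbfb replicate 1, with a median of 0.026. Among tested genes at least as deep as the shallowest coding gene of the list, 58.0% were, with a median of 0.029. CPM are shares of a library, so a lower share of Rn45s by itself goes with higher shares of other genes. For 12 of the 42 genes the group difference exceeded both replicate differences, against 32.1% of all tested genes.

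**Figure D4:**
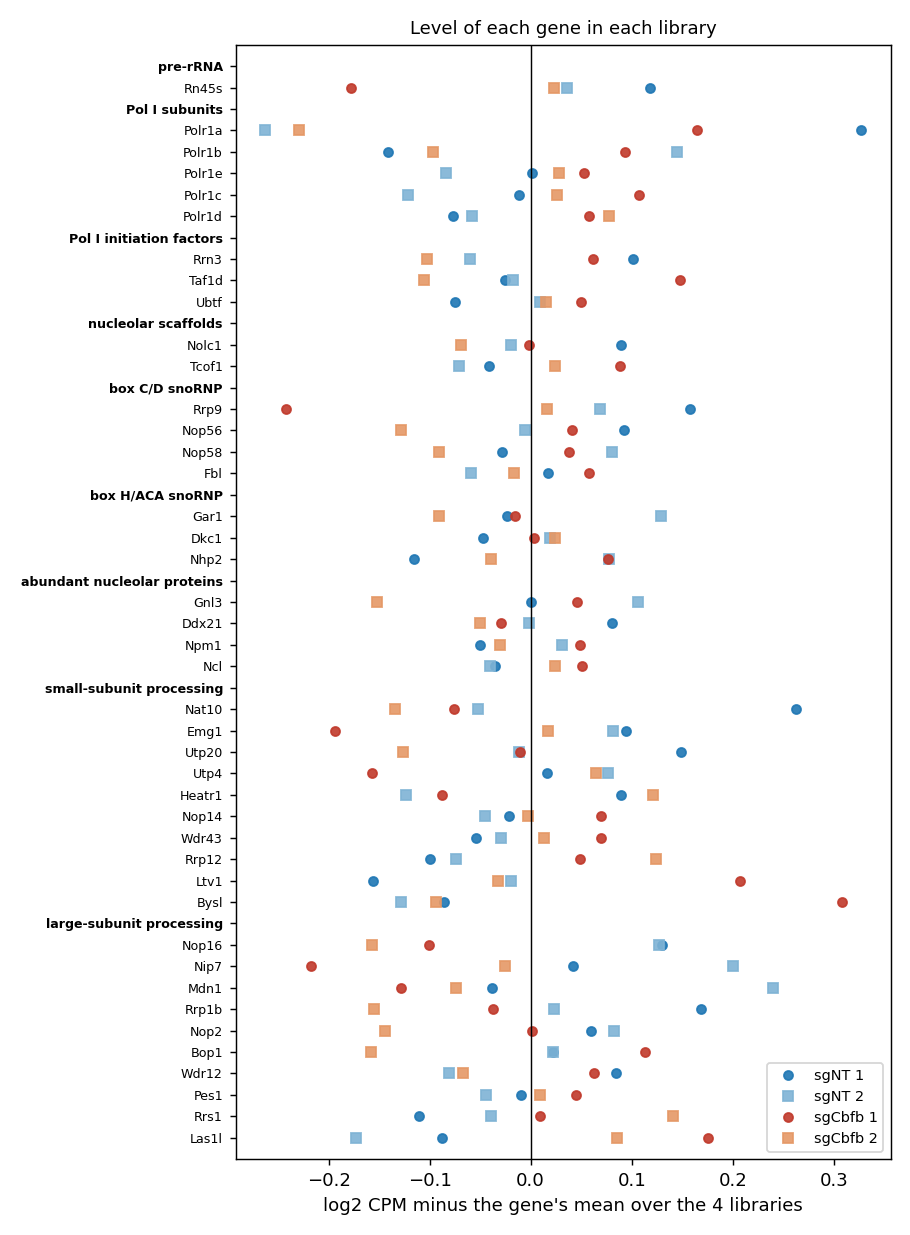
Each row is a gene, and points give its log2 CPM in each library minus its mean over the 4 libraries (blue, sgNT; red and orange, sgCbfb; circles, replicate 1; squares, replicate 2). Rn45s, Rrp9, Emg1 and Nip7 are lowest in sgCbfb replicate 1, Bysl, Ltv1 and Taf1d are highest there, and only some genes, such as Nop16 and Las1l, separate by group with close replicates.

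Further genes of the pathway were listed by role, and the 176 present in the table were read the same way. Of these, 174 were tested, 1 was lower and 0 were higher at an adjusted p-value under 0.05, and 17 (9.77%) had an unadjusted p-value under 0.05. Over all tested genes 2.83% and 14.9% did so. The median log2 fold change of the 174 genes was -0.016, against 0.039 for all tested genes. None passed among 14 other Pol I and shared subunits and factors, 11 RNA polymerase III subunits, 47 small-subunit and 53 large-subunit factors, 9 snoRNP proteins and assembly factors, 15 rRNA-trimming nucleases and 10 tested genes of the MYC network. In the list of ribosomal and related non-coding RNAs, 3 genes were tested and none passed. The interval lay inside a 1.5-fold change for only 3 of the 10 MYC network genes and 7 of the 11 RNA polymerase III subunits. Larger differences could have been missed in the rest. Unadjusted p-values under 0.05 were found for 3 genes in each of these lists, a higher share than over all tested genes. The share was lower for small-subunit factors (2 of 47), large-subunit factors (2 of 53) and nucleases (2 of 15). The medians of the 2 large lists of subunit factors were -0.019 and -0.0045, with 22 positive and 25 negative values among the small-subunit factors and 24 and 29 among the large-subunit factors.

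The gene that passed was Snhg6, 1 of 12 transcripts that carry small nucleolar RNAs in their introns. It had 50.1 and 73.5 CPM in sgNT and 30.7 and 44.5 CPM in sgCbfb cells, and fell by 0.70 in log2 units (SE 0.17, adjusted p = 0.0152). Replicates of both groups were far apart. The call was lost without sgNT replicate 2, at -0.43 (adjusted p = 0.396), and kept without sgNT replicate 1, at -0.98 (adjusted p = 0.00636). Without sgCbfb replicate 1 or 2, where no gene passed, the values were -0.44 and -0.97. The call was also lost with no low-value filter, at -0.70 (adjusted p = 0.0770), and with quantile normalization, at -0.73 (adjusted p = 0.299). The better-read host Gas5 had 772 and 784 CPM in sgNT and 731 and 628 CPM in sgCbfb cells, at -0.20 (adjusted p = 0.0993). Myc itself was thinly read, at 103 and 111 reads in sgNT and 89 and 79 in sgCbfb cells, and the fitted log2 difference was -0.41 (SE 0.16, adjusted p = 0.200). Both sgCbfb libraries of Myc and of Gas5 lay below both sgNT libraries, as in 16.8% of all tested genes. Members of the same lists also lay the other way without overlap, the host Epb41l4aos at 0.21 and the MYC antagonist Mxi1 at 0.42, neither of which passed. Another MYC antagonist, Mxd3, lay lower without overlap, at -0.46 (adjusted p = 0.310). Of the 12 hosts 1 was higher and 4 were lower without overlap, and of the 10 MYC network genes 2 were higher and 2 lower. Over all tested genes 27.4% were higher and 16.8% lower in this way. Gas5, Myc, Epb41l4aos, Mxi1 and Mxd3 were named after their values were seen.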

How the data were processed

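MC38 cells were profiled by QuantSeq 3′ mRNA sequencing (single-end, 75 bp). Per the labels, the submitters' processing notes name cutadapt 1.9, HISAT2 2.1.0 and featureCounts 2.0.1 on mm10; the methods of the study name another featureCounts release. The authors deposited log2 CPM, scaled to each library's total with a prior count of 2. The annotation, the strand setting and the treatment of multi-mapped reads are not given in the sources used here, and 14 of the 41 coding members overlap another coding gene in GENCODE M21, Taf1d, Rrp9, Dkc1 and Emg1 among them.

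The log2 values were tested with limma 3.58.1 in R 4.3.3 (lmFit, eBayes with a mean-variance trend, two-sided, Benjamini-Hochberg adjustment), over 12207 genes that reached log2 CPM 0 in 2 or more libraries. The study names voom with limma, which takes counts, so this test was used on the log2 scale. Whole reads were recovered from the steps of the values (at least 99.99% within 0.1 of a whole number) and served for CPM and voom. Replicates differed beyond sampling noise (chi-square per degree of freedom 1.58 in sgNT and 2.15 in sgCbfb). Scripts were tested on simulated data.

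Values were printed for Rn45s, for members past the threshold, for members without overlap at an unadjusted p under 0.05, and for the smallest p and the highest level in each role. Other members are given by their fold change. The members and lists were chosen with earlier results of these data known. Alternatives were other filters, scalings and variance models, voom, a replicate block, a threshold of 0.01 and leaving out each library. The filter alternatives kept every gene with a read in any library, or required 5 CPM. Gene positions are from GENCODE M21 (GRCm38), matched by symbol for 41 of the 42 members, and figures were drawn with matplotlib 3.10.9.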

Additional observations from a re-analysis of the deposited data

How the results depend on the processing

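Under 13 alternative fits and at a threshold of 0.01, 0 of the 42 genes passed, except Rn45s, which passed as lower in both voom fits (1 member each, at -0.16 with library totals and -0.22 with median-of-ratios scaling). Quantile normalization set Rn45s to 0, because it is the highest gene of each library, and also gave 0 for Ncl. For the 17 members besides Rn45s whose values in every library were printed by rule, 221 values were compared. Of these, 215 kept their direction and stayed short of the threshold, 1 was this 0 for Ncl, and 5 crossed 0. With single libraries left out, Taf1d ran from -0.084 to 0.17, Nop58 from -0.12 to 0.011 and Dkc1 from -0.0059 to 0.061. Taf1d was negative without sgCbfb replicate 1. Nop58 was 0.0018 without sgNT replicate 2 and 0.011 without sgCbfb replicate 2. Dkc1 was -0.014 in voom with median-of-ratios scaling and -0.0059 without sgNT replicate 1. The median of the 42 genes ran from -0.061 without sgCbfb replicate 1 to 0.060 without sgCbfb replicate 2, so its sign rests on single libraries. Counts over all genes moved from 192 higher and 153 lower to 300 higher (a 5 CPM filter), 40 higher and 48 lower (quantile normalization), 0 each (no mean-variance trend), and 242 lower in voom with median-of-ratios scaling. With a library left out they ran from 0 to 115 higher and from 0 to 86 lower. No gene passed without the trend or without either sgCbfb library, so these fits say nothing on stability. The replicate block gave 320 higher genes and 0 members. The deviations of libraries sharing a number had a correlation of -0.0042, and the labels do not say what they share. Causes were not tested. The widest intervals were those of thinly read members.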
